A study of Mus musculus with 3 samples.

Results

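The Jak kinases and Stat factors are the core of a short signalling route from cytokine receptors to the nucleus. They were described in dorsal dermal fibroblast progenitors of the mouse, the mesenchymal cells from which the fibroblasts of back skin arise. Members were the 9 named genes Jak1, Jak2, Jak3, Stat2, Stat3, Stat4, Stat5a, Stat5b and Stat6, found by the gene symbol that the deposited table gives each probe. They had 18 probes, out of 25697 probes for 17849 genes on the array. All 9 genes were measured and all 18 probes were kept. The samples formed 1 group, made of 3 Illumina MouseRef-8 bead arrays. The cells came from embryos of embryonic day 12.5 that carried Engrailed1Cre/+ and R26R/+, a Cre driver at the Engrailed1 locus and a Cre reporter at the Rosa26 locus. Laser capture from 5 embryos yielded the cells, whose RNA went into 1 pool ahead of amplification. The arrays were technical replicates of that 1 pool, so each SD below is a spread between arrays, and the design holds no contrast between conditions. The labels do not say whether the arrays shared 1 labelling reaction, and how far an SD covers amplification and labelling is therefore not known. The question open to these data was which of the 9 transcripts were read above array background.

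A cytokine, growth hormone or interferon brings its receptor chains together, and the Jak kinases bound to the chains phosphorylate each other and the receptor. Stat proteins dock on the receptor, are phosphorylated in turn, pair up, enter the nucleus and bind DNA. Jak1 and Jak2 serve receptors found on most cell types, whereas Jak3 works with the common gamma chain of lymphocyte receptors. In skin, Stat3 is known for its part in wound repair and in the growth of hair and epidermis.

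Of the 9 genes, 3 were detected, namely the kinases Jak1 and Jak2 and the factor Stat3. The detection p of a probe is the share of negative control beads that were at least as bright. It had to be under 0.01 on each of the 3 arrays for a probe to count as detected, and 1 such probe sufficed for its gene. That made 2 of 3 Jak genes and 1 of 6 Stat genes, or 33.3% of the members, where 43.6% of all genes on the array were detected in the same way. A further 2 genes, Stat2 and Stat5a, passed on arrays 1 and 3 but not on array 2, and with array 2 left out the count was 5 of 9, beside 47% of all genes. The other 4, Jak3, Stat4, Stat5b and Stat6, passed on no array. By probe the count was 4 of 18 (22.2%), beside 37.7% of all probes. In a pool of cells, fewer cells of a type and less RNA per cell cannot be told apart, and a missed detection does not show that a transcript was absent.

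The background was read from 1155 probes for olfactory receptors, genes that skin mesenchyme is not known to use. The 99th percentile of their normalized signal was 23.1 on array 1, 45.1 on array 2 and 26.0 on array 3, in arbitrary units. Array 2 thus had the widest background in normalized signal. That signal is the non-normalized one times 2.07 on array 2, against 0.672 on array 1 and 0.699 on array 3, plus an offset. The width in normalized signal therefore carries this scaling. It does not show that array 2 had a wider background in non-normalized signal, where widths were not compared. Array 2 detected 39.0% of all probes against 44.9% on array 1 and 41.6% on array 3. The 10 dermal mesenchyme markers were all detected, with a summed signal between 17026 and 18385 over the arrays. Genes listed as lymphocyte markers were detected at 1 of 14 (Lck), with a summed signal between 141 and 174. Ptprc, Cd3d, Cd3e, Cd4, Cd8a and Cd79a were among the undetected, as were Cd79b and Zap70, whose brightest probes passed on array 1 alone. Markers of macrophages and mast cells were detected at 9 of 11, all but Itgam and Spi1 (summed signal 1400 to 1485), and those of erythroid cells at 8 of 10, all but Gata1 and Epor (90595 to 145354). Endothelial markers were detected at 6 of 8, all but Tie1 and Kdr (1563 to 1616), and epidermal ones at 6 of 7, all but Perp (2125 to 2262). Skeletal muscle markers were detected at 5 of 7, all but Myod1 and Myf5 (8049 to 9382), and those of neurons and neural crest at 5 of 6, all but Tubb3 (1852 to 1975). The share that each of these cells had in the Jak and Stat signals was not tested.

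The promoters of the 9 genes were read because detected protein-coding genes on the array had more CpG-rich promoters than undetected ones. CpG dinucleotides, which are crowded in the promoters of genes that many tissues use, are in capitals in the 250 bases before the transcription start of 6 members (RefSeq, GRCm38.p6, 5′ to 3′). The first 3 belong to the detected genes, the fourth to a CpG-rich member that passed on no array, and the last 2 to undetected members with few CpGs.
Jak1, chr4:101265224-101265473, minus strand: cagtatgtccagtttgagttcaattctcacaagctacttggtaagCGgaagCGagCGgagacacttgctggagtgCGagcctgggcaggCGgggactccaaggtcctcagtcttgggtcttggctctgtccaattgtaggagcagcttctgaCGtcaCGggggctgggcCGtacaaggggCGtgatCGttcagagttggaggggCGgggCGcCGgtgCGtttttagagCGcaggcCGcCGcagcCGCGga
Jak2, chr19:29251553-29251802, plus strand: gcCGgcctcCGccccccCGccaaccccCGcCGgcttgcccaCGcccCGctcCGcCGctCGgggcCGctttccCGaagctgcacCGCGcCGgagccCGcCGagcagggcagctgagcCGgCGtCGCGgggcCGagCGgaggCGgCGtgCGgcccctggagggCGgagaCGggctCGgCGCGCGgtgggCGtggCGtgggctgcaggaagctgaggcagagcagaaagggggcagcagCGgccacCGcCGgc
Stat3, chr11:100939541-100939790, minus strand: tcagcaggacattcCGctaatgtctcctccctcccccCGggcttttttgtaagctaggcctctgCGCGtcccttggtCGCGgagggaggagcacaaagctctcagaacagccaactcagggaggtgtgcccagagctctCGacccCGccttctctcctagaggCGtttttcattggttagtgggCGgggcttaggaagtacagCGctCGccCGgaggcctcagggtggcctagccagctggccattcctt
Stat5b, chr11:100850582-100850831, minus strand: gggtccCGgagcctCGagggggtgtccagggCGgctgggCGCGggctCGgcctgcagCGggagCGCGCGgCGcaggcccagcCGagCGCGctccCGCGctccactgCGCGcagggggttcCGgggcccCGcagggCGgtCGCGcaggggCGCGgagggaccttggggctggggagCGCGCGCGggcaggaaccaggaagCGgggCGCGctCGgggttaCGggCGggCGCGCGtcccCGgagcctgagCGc
Jak3, chr8:71676133-71676382, plus strand: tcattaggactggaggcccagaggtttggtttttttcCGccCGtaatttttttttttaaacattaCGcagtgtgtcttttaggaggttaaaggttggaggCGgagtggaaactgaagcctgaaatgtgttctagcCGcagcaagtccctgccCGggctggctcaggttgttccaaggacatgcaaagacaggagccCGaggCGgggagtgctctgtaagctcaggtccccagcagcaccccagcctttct
Stat4, chr1:52007990-52008239, plus strand: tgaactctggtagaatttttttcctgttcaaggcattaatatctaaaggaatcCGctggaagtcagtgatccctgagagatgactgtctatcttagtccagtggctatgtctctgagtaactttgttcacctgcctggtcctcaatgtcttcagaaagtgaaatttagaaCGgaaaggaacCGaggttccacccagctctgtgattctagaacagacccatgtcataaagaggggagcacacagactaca

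Over the whole window of 250 bases before to 50 after the start, the CpG observed/expected ratio was 0.95 for Jak1, 0.89 for Jak2 and 0.55 for Stat3, the 3 detected genes. Stat2 and Stat5a, which passed on 2 arrays, had ratios of 0.83 and 0.80. Jak3, Stat6 and Stat4, which passed on none, had the lowest ratios, at 0.41, 0.32 and 0.25. The members held no steady order, since Stat3 passed on 3 arrays with a lower ratio than Stat2 and Stat5a. Stat5b had the highest ratio of all, 1.01, and no array passed. Where a gene had 2 windows the one with the higher ratio was taken. With the first window listed Stat5a had 0.20, below Jak3 and Stat6, and Stat4 had 0.10. All 9 members had a window. Of all 17849 genes on the array 13473 had one (75.5%), under the minimum of 80% set for such a check, which is void for the array as a whole. After this shortfall was seen the genes were limited to the protein-coding ones on the chromosomes whose promoters were read, where 13401 of 16405 (81.7%) had a window. Among those genes, 64.6% of the 7546 with a ratio of at least 0.6 were detected, and 20.9% of the 5855 below it. Among the members the counts were 2 of 5 at or above that ratio and 1 of 4 below it. With 9 genes this is a description, and the ratio was looked up with the calls already known.

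**Figure D1:**
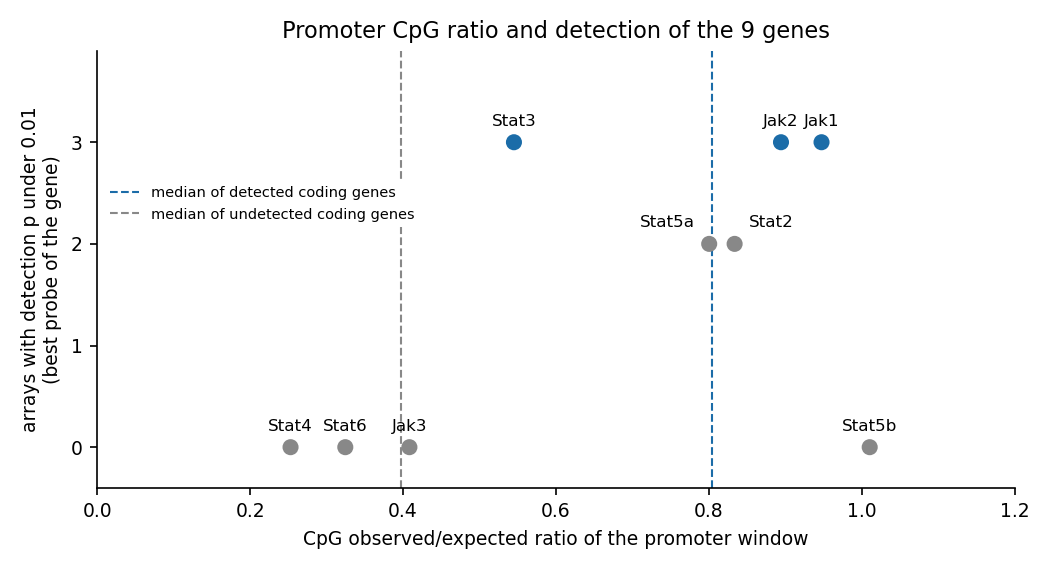
Promoter CpG observed/expected ratio (horizontal) of the 9 Jak and Stat genes against the number of arrays on which the gene's best probe had a detection p under 0.01 (vertical). Blue points are detected genes and grey points undetected ones, and the dashed lines are the medians of detected (0.80) and undetected (0.40) protein-coding genes. Stat5b at 1.01 is the only member above 0.6 that passed on no array.

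DNA motifs of the pathway were searched in the same windows on both strands. The core of the gamma-activated site that Stat dimers bind, TTCNNNGAA, was in none of the 12 windows of the 9 genes and in 8.30% of all 32841 promoter windows. A core of the interferon-stimulated response element, GAAANNGAA, bound by the complex that holds Stat2 and Irf9, was in 3 of the 12 windows and in 8.56% of all. They were the windows of Jak3, Stat2 and Stat4, with matches that begin at -143, -221 and -97 from the start. The sequence of Stat2, itself part of that complex, is shown with the match in capitals.
Stat2, chr10:128270248-128270497, plus strand: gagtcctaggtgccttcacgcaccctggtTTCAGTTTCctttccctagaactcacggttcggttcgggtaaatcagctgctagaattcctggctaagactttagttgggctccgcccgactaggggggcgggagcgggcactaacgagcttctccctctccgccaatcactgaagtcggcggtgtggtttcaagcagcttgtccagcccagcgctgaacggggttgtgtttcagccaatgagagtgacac

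Jak1, the kinase shared by gp130, interferon and gamma chain receptors, lies on chromosome 4 and had 1 probe. Its normalized signal was 188, 142 and 180 on arrays 1, 2 and 3, a mean of 170 ± 24.8 (SD, n = 3 arrays), with a detection p of 0 on each. It was the only member detected under every one of the 10 other settings tried. Most of these settings could not have removed its call. A looser threshold, fewer required arrays, an array left out or file symbols cannot remove the call of any detected member. With 1 probe the call of Jak1 also could not change when every probe was required, the only setting in which Stat3 was lost. Array 2 read the lowest of the 3, and the SD of the log2 signal of Jak1, 0.22, was 0.04 without array 2.

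Jak2, the kinase of erythropoietin, growth hormone and prolactin receptors, lies on chromosome 19 and had 3 probes, of which 1 was detected. That probe read 114, 63.1 and 104 on arrays 1, 2 and 3 (93.5 ± 26.8), with p-values of 0, 0.00125 and 0. Array 2 was again the lowest, and the log2 SD of 0.46 was 0.09 without it. A second probe, designed on the record of transcript variant 2, read 29.1, 23.6 and 25.4, with p-values of 0.00125, 0.0777 and 0.0150, so it passed on array 1 alone. The third read 0.0969, 10.6 and 4.19 and lay within background on every array. The 3 probes of Jak2 thus differed in their calls, and Jak2 was not called when every probe had to be detected and at a detection p under 0.001.

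Jak3, the partner of the common gamma chain in lymphoid cells, lies on chromosome 8. Its brighter probe read 11.1, 11.9 and 6.95, with p-values of 0.0752, 0.211 and 0.148. The other read 4.95, -0.705 and -1.09, with p-values of 0.175, 0.504 and 0.404. Neither probe came under 0.05 on any array, and the receptor gene Il2rg, which encodes the common gamma chain, was undetected as well (-6.51 ± 9.26).

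Stat3, the main factor downstream of gp130, had 3 probes and was detected by 2. The first read 307, 392 and 315 on arrays 1, 2 and 3 (338 ± 46.8) and the second 194, 195 and 178 (189 ± 9.84), each with p-values of 0 throughout. Here array 2 was the highest or level with array 1, unlike in Jak1 and Jak2. The third probe read 9.84, -2.99 and 28.7 (11.8 ± 15.9), with p-values of 0.0990, 0.579 and 0.0113, and was within background on arrays 1 and 2. All 3 probes carry the same record in the deposited table, and what sets the third apart was not tested. Split calls among probes were common, since 2066 of the 2976 detected genes with several probes (69.4%) had at least 1 undetected probe, as did both such members.

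**Figure D2:**
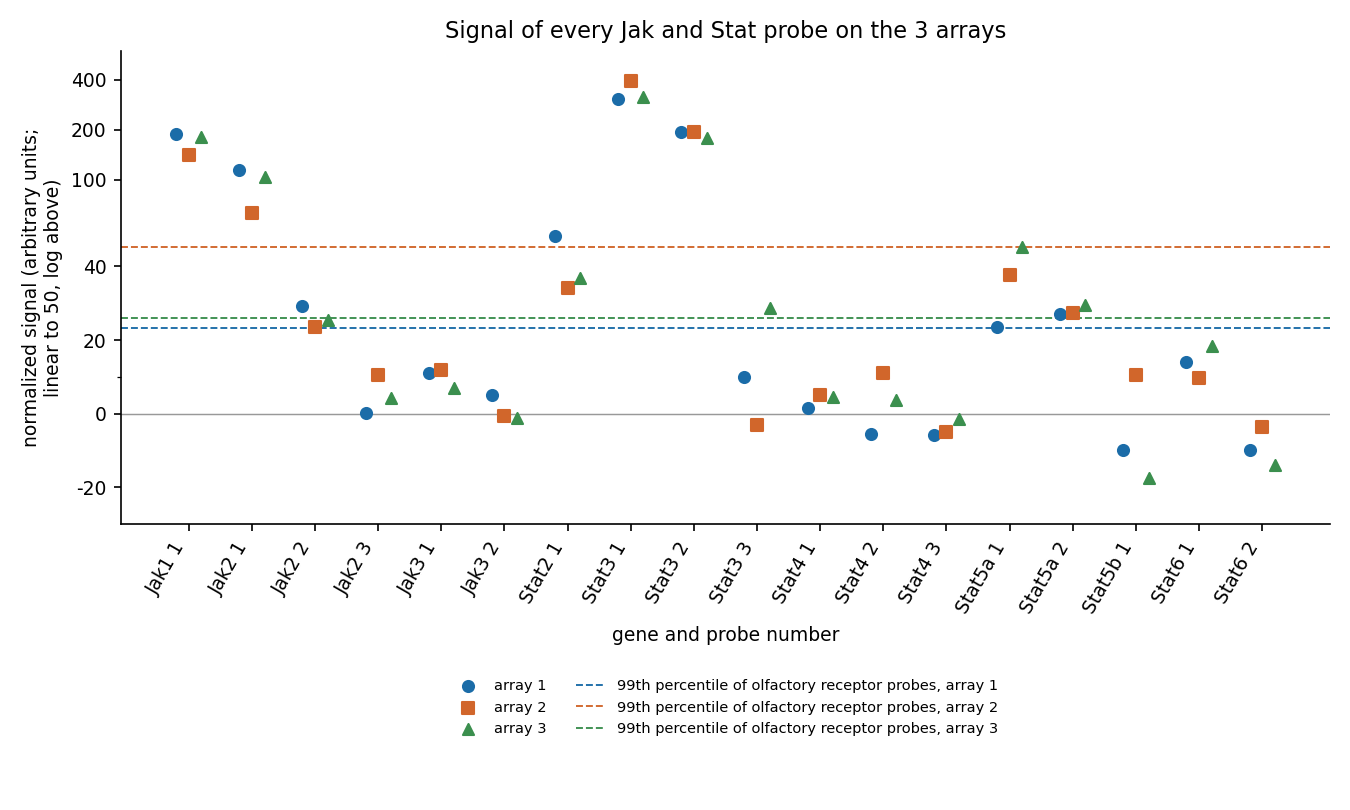
Normalized signal (vertical, arbitrary units, linear up to 50 and logarithmic above) of the 18 Jak and Stat probes, numbered within each gene from the brightest, on arrays 1, 2 and 3. The dashed lines are the 99th percentiles of olfactory receptor probes on each array. The probe of Jak1, the first of Jak2 and the first 2 of Stat3 lie above all 3 lines on every array. Levels of different probes are not on a common scale.

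Stat2, the factor that joins Irf9 under type I interferon, lies on chromosome 10 and had 1 probe. It read 48.1, 34.0 and 37.0, a mean of 39.7 ± 7.45 (SD, n = 3 arrays), with p-values of 0, 0.0238 and 0.00376. Arrays 1 and 3 passed and array 2 did not, where 34.0 lay below the olfactory receptor percentile of 45.1. It was called under 4 of the 10 other settings, which were a detection p under 0.05, at least 2 arrays, at least 1 array, and array 2 left out.

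Stat5a and Stat5b are close copies that act after growth hormone, prolactin and many cytokines. In the RefSeq gene table Stat5b, Stat5a and Stat3 follow one another on chromosome 11 with no other protein-coding gene between them. The first Stat5a probe read 23.5, 37.5 and 45.2 (35.4 ± 10.97), with p-values of 0.00752, 0.0238 and 0.00125. The second read 27.0, 27.4 and 29.4 (27.9 ± 1.31), with p-values of 0.00376, 0.0539 and 0.0113. Both Stat5a probes lay above the olfactory receptor percentile on arrays 1 and 3 and below it on array 2, and Stat5a was called under the same 4 settings as Stat2. The 1 probe of Stat5b read -9.82, 10.5 and -17.6 (-5.64 ± 14.5), with p-values of 0.886, 0.244 and 0.987, on either side of 0. Whether a probe of 1 copy can bind the transcript of the other was not tested, since probe sequences were not used here.

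Stat4 and Stat6 drive helper T cell programmes after interleukin 12 and interleukin 4. Stat4, on chromosome 1, had 3 probes with mean signals of 3.66 ± 1.90, 3.12 ± 8.31 and -4.08 ± 2.26 and p-values between 0.192 and 0.672. The first Stat6 probe, on chromosome 10, read 13.9, 9.60 and 18.5 (14.0 ± 4.43), with p-values of 0.0526, 0.259 and 0.0276. The second read -9.79, -3.62 and -14.0 (-9.13 ± 5.21). These genes were undetected under all 10 other settings, as were Jak3 and Stat5b, and Il12rb1 (3.37 ± 10.3), Il12rb2 (-12.1 ± 6.82) and Il4ra (7.10 ± 10.1), receptor chains upstream of Stat4 and Stat6, were undetected too. Il13ra1, a further chain upstream of Stat6, read 30.5, 14.3 and 17.1, with p-values of 0.00125, 0.175 and 0.0313, and passed on array 1 alone.

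**Figure D3:**
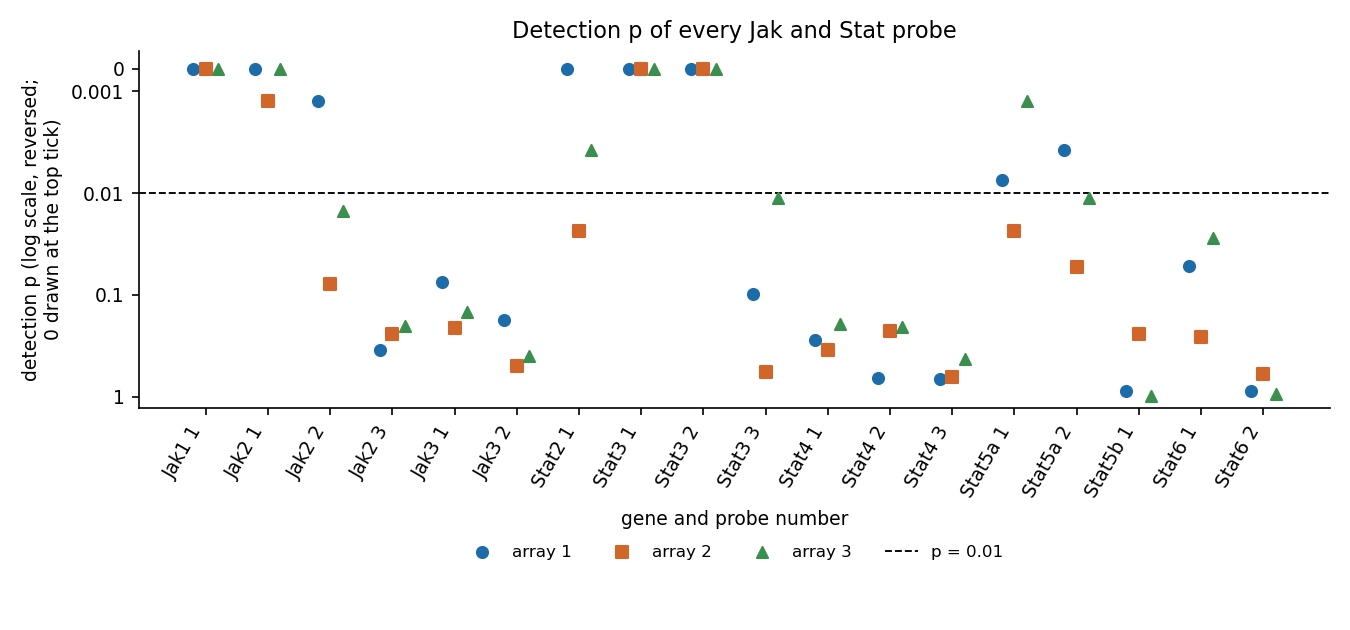
Detection p (vertical, log scale with small values at the top, a p of 0 drawn at the top tick) of the 18 Jak and Stat probes on arrays 1, 2 and 3. The dashed line is the threshold of 0.01. In Stat2 and the first Stat5a probe, array 2 at 0.0238 is the only array with a p above 0.01.

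The SD between arrays of the log2 signal of the 4 detected probes had a median of 0.21 and ran from 0.08 to 0.46, beside a median of 0.11 and a 90th percentile of 0.29 over all 9693 detected probes. Jak2 was the 1 probe of the 4 above that percentile, and the second Stat3 probe the 1 below that median. Without array 2 the median over the 4 probes was 0.07.

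The rest of the pathway was read from 9 lists of 113 measured genes, of which 46 were detected (40.7%), near the 43.6% of all genes. The median signal over these genes was 18.1, beside 25.0 over all genes on the array. Ligands and receptors lay mostly at background, while inhibitors, partners and target genes were detected at 12 of 18, 8 of 10 and 9 of 14. If all probes had to pass, these last lists gave 7 of 18, 4 of 10 and 7 of 14, beside 32% of all genes. The values below are the mean normalized signal ± SD over 3 arrays of each gene's brightest probe. Other probes of a detected gene can be undetected, and they are mostly not given.

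Ligands of the gp130 family, cytokines such as interleukin 6, were detected at 2 of 12 (median signal 11.4). They were Cntf (127 ± 30.5) and Ctf1 (239 ± 6.01), which encode ciliary neurotrophic factor and cardiotrophin 1. Il6 (10.3 ± 7.37), Il11 (18.1 ± 1.72), Lif (3.13 ± 15.4) and Osm (6.95 ± 10.9) were among the 10 undetected. Receptors of the family were detected at 3 of 10 (median 24.0). Il6st, which encodes gp130 itself, lay at 110 ± 22.6 by its only probe. Il27ra lay at 89.0 ± 14.9 and Il11ra1 at 12564 ± 2336, a gene with near-identical copies in the mouse whose share in this signal was not tested. Il6ra (-0.881 ± 8.44), Lifr (32.3 ± 10.3), Osmr (15.7 ± 4.87) and Cntfr (-5.60 ± 7.86) were undetected, Lifr passing on array 1 alone. The shared chain, Il11ra1 and Il27ra were thus read beside Jak1, Jak2 and Stat3. The partner chains for interleukin 6, leukemia inhibitory factor and oncostatin M were not detected. Of these, Lifr lay near the threshold, with p-values of 0.00125, 0.01003 and 0.0188 on arrays 1, 2 and 3. At a detection p under 0.05 the receptors of the family were detected at 5 of 10.

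Receptors for interferons and the interleukin 10 family were detected at 4 of 10 (median 27.99). Both chains for interferon gamma were read, Ifngr1 at 130 ± 13.6 and Ifngr2 at 1376 ± 602, by 3 of 3 probes. Ifngr2 read 993, 2070 and 1066 on arrays 1, 2 and 3, so array 2 set its spread. Of the chains for type I interferon, Ifnar2 (78.6 ± 6.26) was detected and Ifnar1 (-2.56 ± 3.67) was not. Il10rb (70.8 ± 10.9) was detected, and Ifnlr1 (30.7 ± 6.32), Il10ra (11.8 ± 7.73) and Il20ra (25.3 ± 9.18) were not.

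Receptors of the gamma chain, beta common and interleukin 12 groups, most of which belong to blood cells, were detected at 2 of 16 (median 7.21). The 2 were Il3ra (45.5 ± 18.5) and Csf2ra (55.2 ± 4.76), both near background and both lost at a detection p under 0.001. Il2ra (1.64 ± 11.8) and Il2rb (11.2 ± 9.57) were undetected, in addition to Il2rg and Il4ra above. Of the 4 receptors that pair with themselves (median 14.9), 1 was detected, by 1 of its 2 probes. This was Ghr, the growth hormone receptor that signals through Jak2 and Stat5, at 1707 ± 61.6. Prlr (11.9 ± 10.04) and Epor (17.9 ± 8.16) were among the 3 undetected.

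Inhibitors were detected at 12 of 18 (median 211). Some of the Socs genes are feedback inhibitors induced by Stat factors. Socs2 lay at 1820 ± 14.1, Socs3 at 264 ± 24.1, Socs5 at 160 ± 12.7 and Socs6 at 209 ± 14.4. The related gene Cish lay at 253 ± 10.9. Socs1 (15.6 ± 7.18), Socs4 (27.96 ± 3.33) and Socs7 (10.4 ± 10.3) were undetected. The Pias genes, whose products bind Stat proteins or attach SUMO to them, were read at 822 ± 34.1 (Pias1), 358 ± 18.6 (Pias3) and 212 ± 28.4 (Pias4). The phosphatase genes Ptpn1 (423 ± 9.98), Ptpn6 (81.2 ± 7.13) and Ptpn11 (4637 ± 122), and Pdlim2 (261 ± 4.25), were detected, while the phosphatase gene Ptpn2 (-5.56 ± 5.04) was not. Ptpn11 also carries growth factor signals outside this pathway.

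Partners and coactivators were detected at 8 of 10 (median 98.0). Irf9, the DNA-binding partner of Stat2, lay at 82.6 ± 17.1. The coactivator genes Ep300 (525 ± 16.1) and Ncoa1 (292 ± 6.90), the adaptors Stam (56.7 ± 11.05), Stam2 (113 ± 32.7), Sh2b1 (542 ± 8.98) and Stap2 (48.9 ± 11.2), and Ndufa13 (9897 ± 793) were detected. The product of Ndufa13 is also a subunit of the respiratory chain. Crebbp (4.70 ± 0.693) and Nmi (-7.60 ± 6.15) were not detected.

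Target genes of Stat3 and Stat5 were detected at 9 of 14 (median 53.7). The cyclin gene Ccnd1 lay at 7651 ± 1014, the survival genes Mcl1 at 2281 ± 87.7 and Bcl2l1 at 58.3 ± 9.47, and Birc5, which also acts in mitosis, at 1060 ± 57.2. Igf1, a growth factor that growth hormone induces through Stat5 in liver, lay at 336 ± 47.5. Bcl6 (106 ± 14.1), Icam1 (101 ± 15.8), Junb (46.7 ± 4.45) and Fos (49.1 ± 8.92) completed the 9. Myc (2.74 ± 3.85), Pim1 (20.3 ± 5.97) and Hif1a (-4.65 ± 9.88) were undetected, as was Osm, which is also listed among the ligands. Many of these genes answer to other pathways as well, so their levels are not a measure of Stat activity.

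Interferon-stimulated genes, the targets of the complex that holds Stat2, were detected at 5 of 20 (median 10.3). They were B2m (1096 ± 39.96), Irf1 (235 ± 17.9), Ifit2 (68.9 ± 6.66), Rsad2 (47.4 ± 7.66) and Ifit3 (40.9 ± 15.7), the last of which has a near-identical copy. Irf7 (0.870 ± 8.06), Isg15 (15.6 ± 13.1), Ifit1 (-2.13 ± 10.8) and Mx1 (7.99 ± 8.73) were among the 15 undetected. The low count stood beside a Stat2 signal that passed on 2 arrays and an Irf9 signal that passed on all 3.

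**Figure D4:**
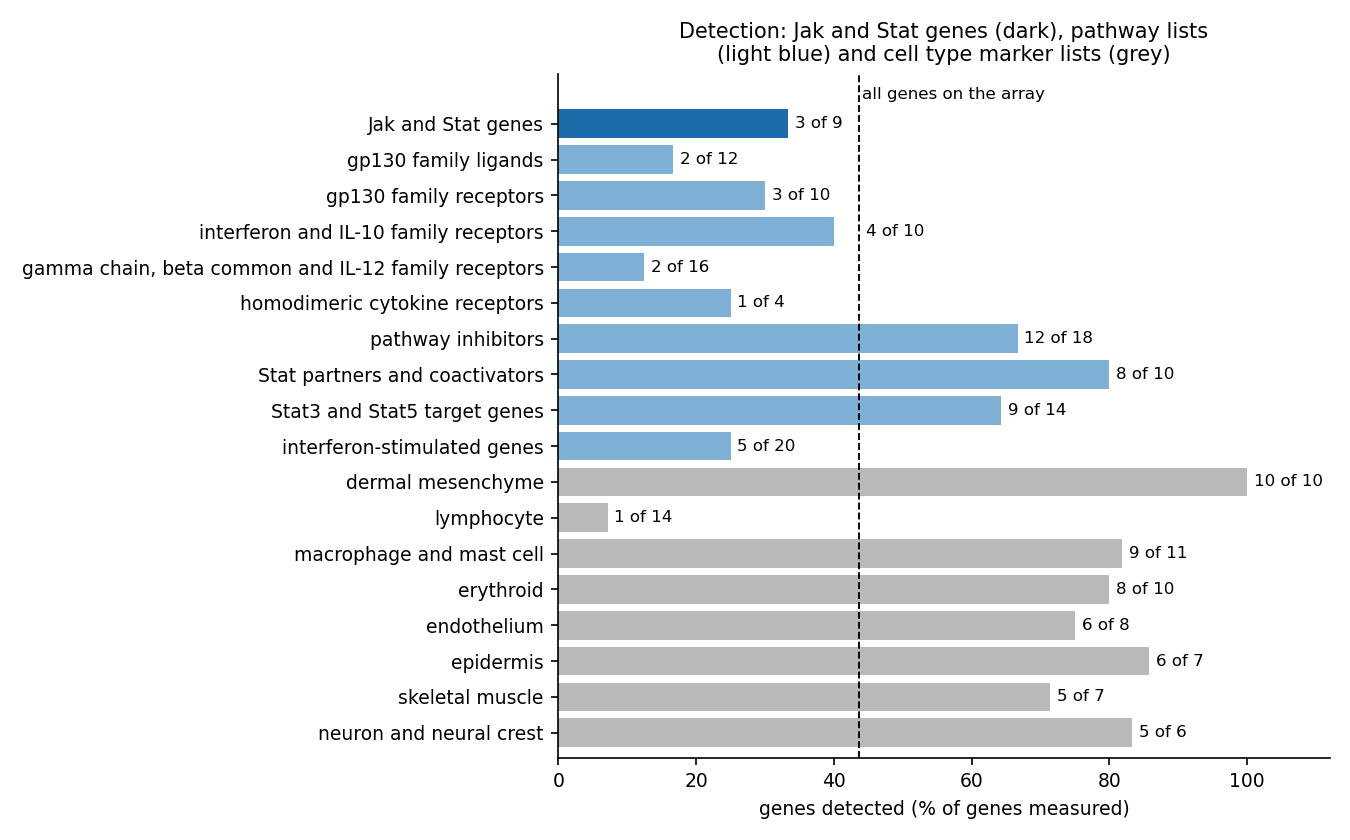
Share of measured genes detected (horizontal, %) for the 9 Jak and Stat genes, the 9 pathway lists and 8 cell type marker lists, with counts beside the bars. The dashed line is the 43.6% of all genes on the array. Inhibitors (12 of 18), partners (8 of 10) and targets (9 of 14) lie to the right of it, and ligands, receptors and interferon-stimulated genes to the left.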

How the data were processed

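Per the labels' protocols, Trizol-extracted RNA passed over RNeasy columns, was freed of DNA with DNase I and was labelled with an Ambion MessageAmp kit. The authors deposited non-normalized and normalized bead intensity for 25697 probes on each of 3 arrays. The normalized intensity equals 1 slope (0.672, 2.07 and 0.699) times the non-normalized one plus 1 offset for each array on a linear scale (largest residual 0.0152), and the authors' value table holds the same numbers with array medians of 14.9, 21.5 and 15.0. The deposited tables also give a detection p-value for each probe and array, in steps of 1 over 798. The sources used here name neither scanner software nor a normalization method. The number of arrays, at 3, limits the precision of a signal.

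File symbols were updated through the RefSeq table of GRCm38.p6 (17548 probes by symbol, 1320 by the name in the definition, 5854 by a synonym, 975 kept). The value of a gene is that of its brightest probe by mean signal. The members and lists were chosen with earlier results of these data known. Named genes are all members, all detected genes of a pathway list and its first 4 undetected genes, some of which are left out here, to which Il12rb1, Il12rb2 and Il13ra1 were added after their values were seen. With 1 group no test between conditions was made. The alternatives were other detection thresholds, numbers of arrays, array omissions, probe rules, names, scalings and promoter windows. Counting, spread and sequence functions were tested on simulated data. Python 3.11.15, numpy 2.4.6 and pandas 2.3.3 were used.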

Additional observations from a re-analysis of the deposited data

How the results depend on the processing

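The count of 3 detected members was 5 at a detection p under 0.05, with at least 2 arrays and with at least 1 array, and 1 when every probe of a gene was required, and it ran from 3 to 5 when each array was left out in turn. Over the same gene settings all genes were detected at 48.5%, 47.6%, 51.7% and 32%. With an array left out all genes were detected at 43.7% to 47%. The 4 detected probes became 8 with at least 1 array (46% of all probes) and ran from 4 to 6 with an array left out (37.8% to 41.2%). At a detection p under 0.001 the members were 2 genes and 3 probes, beside 39.7% of all genes and 33.9% of all probes. A call by signal above the olfactory receptor percentile gave 3 genes and 4 probes (43.7% and 37.8% of all). File symbols alone gave the same counts by construction, since the members were found by file symbol (43.4% of all genes and 37.7% of all probes). Over the 9 members and 10 settings, 11 of 90 calls differed from those reported. Many of the 90 could not differ. Looser settings cannot remove a call, a stricter threshold or probe rule cannot add one, and file symbols leave the members unchanged. They were those of Stat2 and Stat5a in 4 settings each, Jak2 in 2 and Stat3 in 1.

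The 46 detected pathway genes were 27 with every probe required and 46 to 47 with an array left out. They were 52 at a detection p under 0.05, 48 with at least 2 arrays and 58 with at least 1 array. At a detection p under 0.001 they were 36, by the olfactory receptor percentile 44 and by file symbols alone 40. The shares of all genes under these settings are given above. Of 90 counts of single lists 78 stayed within 1.5 times the reported one. Inhibitors, partners, ligands, receptors that pair with themselves and interferon-stimulated genes moved further with every probe required, to 7, 4, 1, 0 and 1. Partners also came to 5 at a detection p under 0.001 and to 4 by file symbols alone, under which 6 of the 10 were found. The median log2 SD of the 4 detected probes was 1.02 on non-normalized signal less the olfactory median, and 0.07 to 0.27 with an array left out. The value of 1.02 includes the difference in scale between arrays (slopes of 0.672, 2.07 and 0.699), so it is not a spread particular to these probes. The detected share of genes with CpG-rich promoters less that of CpG-poor ones was 43.7 percentage points. It was 42.0 at a detection p under 0.001, 45.3 with at least 1 array, 32.3 with every probe required, 41.1 with the first promoter window listed, and 43.5 to 45.4 with an array left out. The promoter alternatives were chosen after seeing the data. For the changed counts the cause was not tested, beyond what looser or stricter calling does by construction. No paired analysis was possible because the series held 1 group.

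Signal close to background sets the limit for Stat2 and Stat5a. With 1 RNA pool, no value covers the spread between embryos.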
